A study of Mus with 9 samples.

Results

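The 9 genes described here make up the mouse Ugt1a locus, which codes for UDP-glucuronosyltransferases, and they were taken by name (Ugt1a1, Ugt1a2, Ugt1a5, Ugt1a6a, Ugt1a6b, Ugt1a7c, Ugt1a8, Ugt1a9 and Ugt1a10) from the 54532 genes of the table. The locus was chosen by the measured difference of Ugt1a2 between 21 mo and 18 mo in these same libraries, so that comparison is given for all 9 members as a description without a test, and so is every comparison of Ugt1a2. Kidney RNA was sequenced from male C57BL/6 mice that had all lost 1 kidney to surgery at 18 months of age, with 3 mice in each of 3 groups and 1 library per mouse. The 18 mo mice were killed 1 week after surgery. The 21 mo mice received saline intraperitoneally for 12 weeks, and the 21 mo/O304 mice received O304, a small-molecule activator of the energy-sensing kinase AMPK, by the same route over the same time, at a daily dose of 10 mg/kg. Age, time since surgery and the injections cannot be told apart between the 18 mo group and the others, and no group had both kidneys.

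UDP-glucuronosyltransferases sit in the membrane of the endoplasmic reticulum and join glucuronic acid, from UDP-glucuronic acid, to bilirubin, phenols, steroid hormones and drugs, which makes these compounds soluble enough to be excreted. The genes of the Ugt1a locus lie one after another, each with a promoter and a first exon of its own, and every first exon is spliced to the same set of downstream exons. The first exon sets which compounds the enzyme binds, and the shared exons code for the part that binds UDP-glucuronic acid. In the kidney these enzymes are known from the proximal tubule, and their genes are known to respond to the aryl hydrocarbon receptor, Nrf2, CAR, PXR and PPAR-alpha.

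All 9 members lie on the plus strand of chromosome 1, between 88055388 and 88220002 (GRCm38, coordinates of the deposited table), a stretch of 164615 bases. Ugt1a10 begins first, at 88055388, and is followed by Ugt1a9 at 88070800, Ugt1a8 at 88087813, Ugt1a7c at 88095062, Ugt1a6b at 88103252, Ugt1a6a at 88134809, Ugt1a5 at 88166012, Ugt1a2 at 88200601 and Ugt1a1 at 88211959. Only Ugt1a7c reaches 88220002, in the table, and its end lies 998 to 1005 bases past the ends of the other members. The RefSeq annotation of GRCm38.p6 ends 7 of the 9 at 88220002 and the other 2, Ugt1a6b and Ugt1a8, at 88218998. A read in that last stretch therefore falls on a single member in the table although RefSeq gives the stretch to 7 of them, and how reads on several genes were handled is not stated. The part of this shared 3' end in the Ugt1a7c count was not tested.

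**Figure D1:**
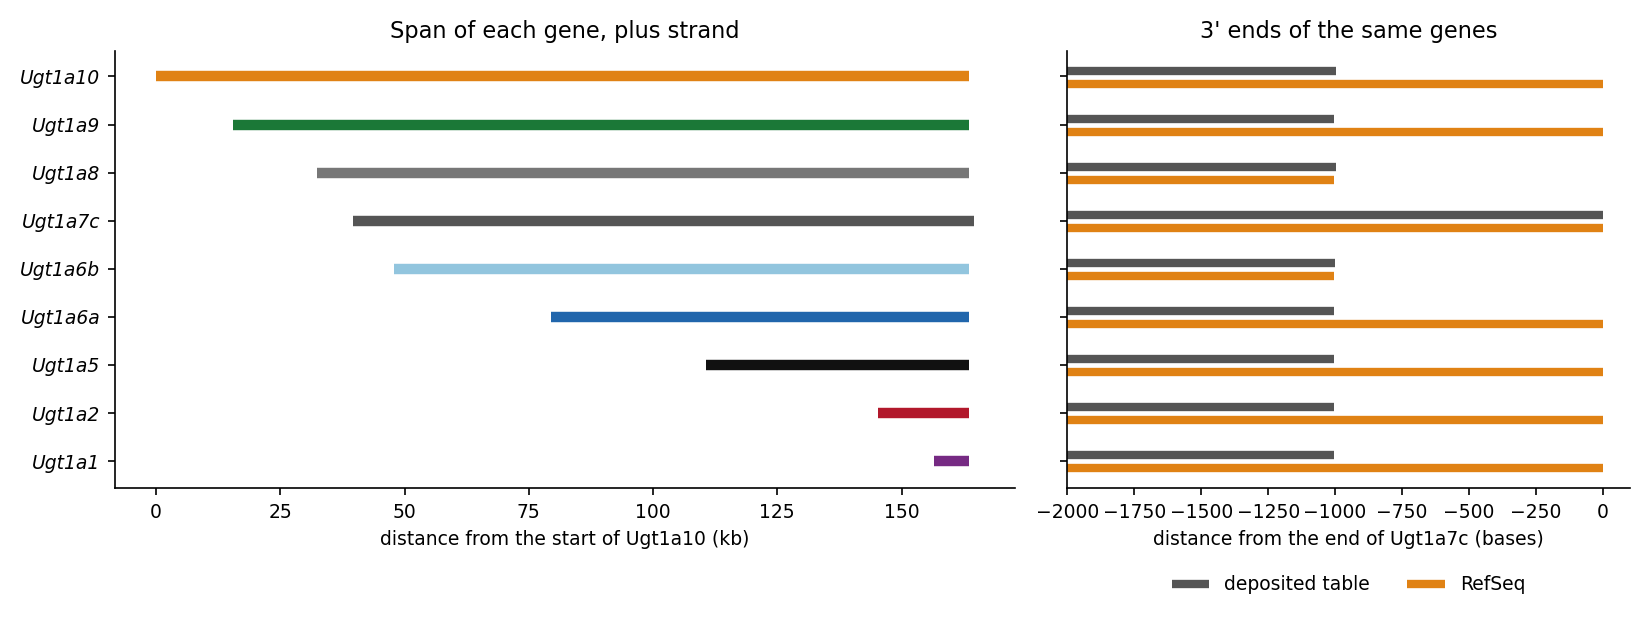
Left, the span of each Ugt1a gene in the deposited table, on the plus strand, against the distance from the start of Ugt1a10 in kilobases. Right, the 3' ends in the table (grey) and in RefSeq (orange) against the distance from the end of Ugt1a7c in bases: Ugt1a7c alone reaches 0 in the deposited annotation, and 7 of 9 genes do in RefSeq.

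Library totals ran from 15636378 to 18396725 counts on genes, and 1 count was worth 0.0458 to 0.0669 CPM, the scale used below, on which counts are set against library sizes adjusted by TMM. The 21 mo libraries were far from alike. Summed over 11 markers of the proximal tubule, the level was 14380, 6585 and 1691 CPM in replicates 1 to 3 of 21 mo, against 13760 to 17257 CPM at 18 mo and 13927 to 15861 CPM with O304. The summed level of 6 markers of injured tubule (Havcr1, Lcn2, Vcam1, Krt20, Spp1 and Clu) was 1553, 13937 and 16554 CPM in the 21 mo replicates, against 916 to 1017 CPM at 18 mo and 980 to 1431 CPM with O304. Most of the injury sum was Spp1, at 1235, 11162 and 12555 CPM in the 21 mo replicates. Every one of these 17 markers was detected in at least 1 library. Replicate 1 of 21 mo lay within the 18 mo range of the first sum and above that of the second, far below replicates 2 and 3. In that replicate, Havcr1 (11.6 CPM) and Clu (251 CPM) lay within their 18 mo ranges. Lcn2 (17.5 CPM), Vcam1 (37.5 CPM), Krt20 (1.00 CPM) and Spp1 (1235 CPM) lay above theirs. In bulk tissue, fewer cells of a type and less RNA per cell cannot be told apart.

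Of the 9 members, 6 passed the filter on low counts and 3 (Ugt1a5, Ugt1a8 and Ugt1a9) did not. Compared per length (CPM divided by the whole exonic gene length in kb, shared exons included), Ugt1a7c was the highest member in each of the 3 groups and Ugt1a10 the second. These levels rest on counts as assigned, and only Ugt1a7c could take reads of the last stretch of the locus. Ugt1a2 ranked 6 at 18 mo with 0.0544 ± 0.0282 CPM per kb (SD, n = 3), ranked 3 at 21 mo with 5.14 ± 3.14, and 6 with O304 at 0.153 ± 0.0625. At 21 mo the first 3 places (Ugt1a7c, Ugt1a10, Ugt1a2) did not overlap in range, whereas ranks 4 to 7 (Ugt1a1, Ugt1a9, Ugt1a6b and Ugt1a6a, with means from 0.475 down to 0.263 CPM per kb) overlapped their neighbours. At 18 mo, Ugt1a2 overlapped Ugt1a1 above it and Ugt1a5 below it. With O304, Ugt1a10 (0.112 to 4.16 CPM per kb) overlapped Ugt1a6b, which was next, and Ugt1a2 overlapped Ugt1a1 and Ugt1a9 on either side of it.

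Ugt1a2 (ENSMUSG00000090171) was near the limit of detection in the 18 mo kidneys. It had 3, 1 and 2 counts in replicates 1 to 3 of 18 mo. The 21 mo libraries held 148, 93 and 413 counts, and those of the O304 mice held 8, 6 and 3. Every 21 mo mouse was above every mouse of the other groups, including replicate 1, which had the lowest injury sum of its group. In CPM the level was 0.120 ± 0.0624 at 18 mo, 11.4 ± 6.93 at 21 mo and 0.338 ± 0.138 with O304 (SD, n = 3). The highest 21 mo mouse, replicate 3 at 18.9 CPM, had the highest injury sum, most of it Spp1. Replicate 1 was at 9.90 CPM and replicate 2 at 5.29 CPM. Replicate 2 had more Havcr1 (475 against 61.2 CPM), Vcam1 and Krt20 than replicate 3, and less Lcn2, Spp1 and Clu. The part of injured tubule in these levels was not tested.

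Scaled for library size, 654 counts of Ugt1a2 at 21 mo against 6 at 18 mo gave a ratio of 100.3 with a 95% counting interval of 45.8 to 274, which covers counting error only and not the spread between mice. The 17 counts with O304 put the 21 mo group 35.2-fold higher than the O304 group (21.8 to 60.7). Against 18 mo the O304 mice were 2.85-fold higher by the same measure (1.07 to 8.84), and the lowest of them and the highest 18 mo mouse both had 3 counts. The fitted log2 differences were 6.48, -5.04 and 1.45 in the same order, and they depend on the prior count because the 18 mo level rests on 1 to 3 counts per library. Without replicate 3 of 21 mo the first of them was 5.88, and over all libraries left out in turn it ran from 5.88 to 6.89. At 21 mo against 18 mo, 3 genes passed the threshold (0.0189% of the 15902 genes tested). Since that comparison chose the locus, no call of Ugt1a2 is given for it.

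**Figure D2:**
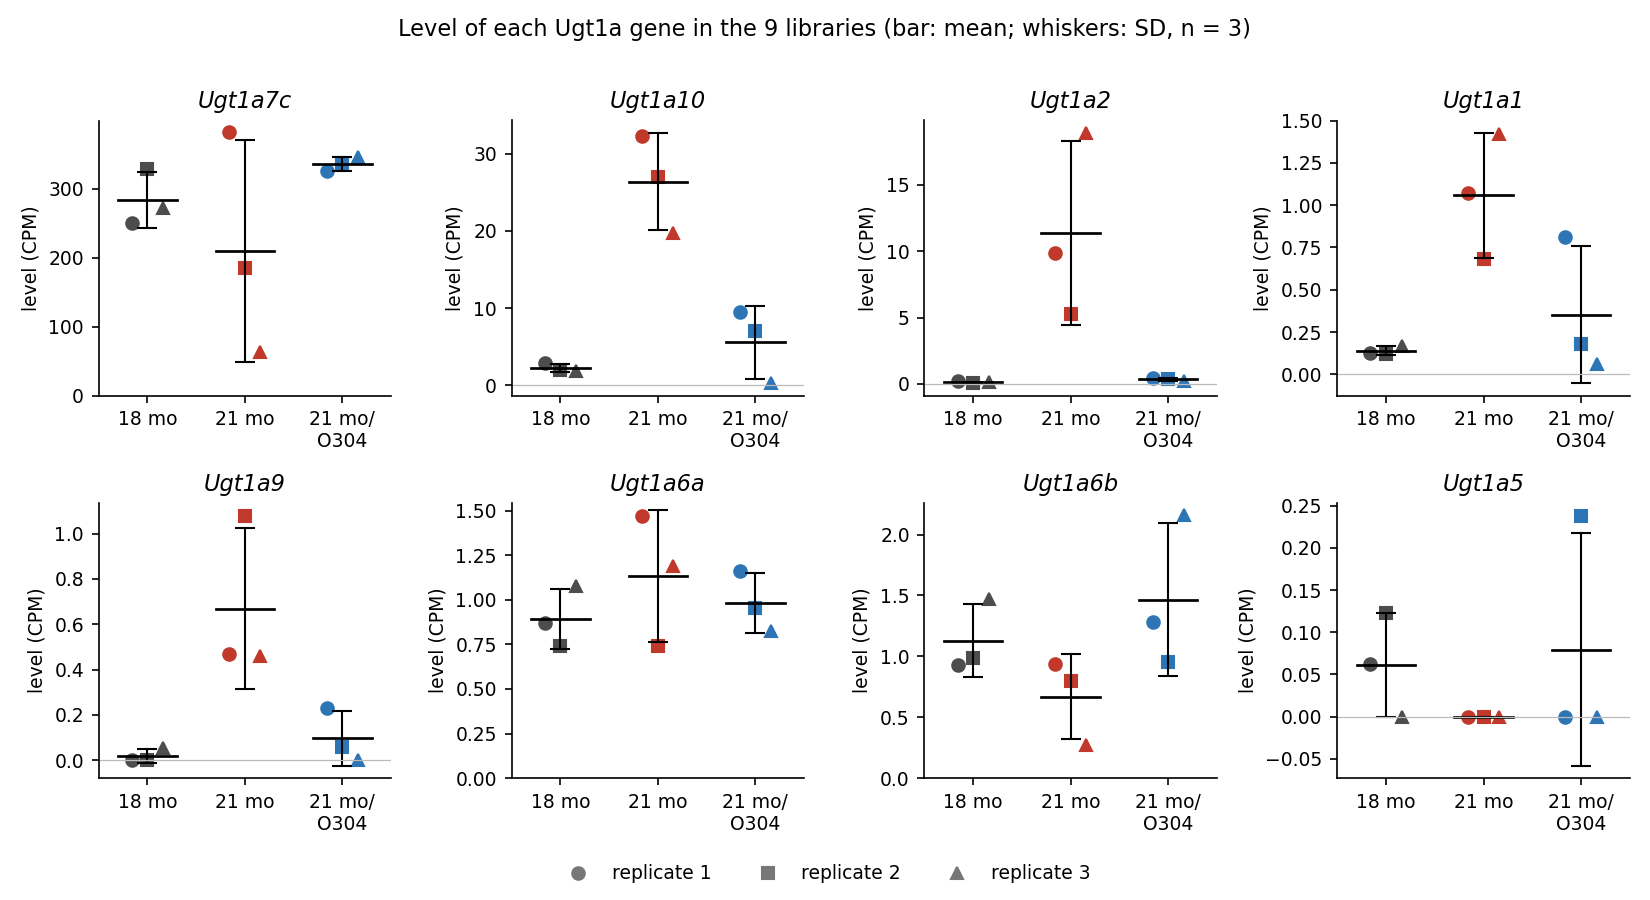
Level in CPM (linear axis, a separate scale per panel) of the 8 Ugt1a genes with any count in each of the 9 libraries, with the mean (bar) and SD (whiskers, n = 3) of each group. Ugt1a2, Ugt1a10, Ugt1a1 and Ugt1a9 had every 21 mo mouse above every 18 mo mouse, while Ugt1a7c ranged from 63.2 to 382 CPM within the 21 mo group itself.

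Ugt1a10 (ENSMUSG00000090165), the member with the most upstream first exon, followed the same order of groups from a higher base. Its counts were 46, 31 and 33 at 18 mo, 484, 475 and 432 at 21 mo, and 162, 117 and 4 with O304. The 3 groups did not overlap between 18 mo and 21 mo or between 21 mo and O304, but the O304 mice lay on both sides of the 18 mo mice. In CPM, Ugt1a10 was 2.21 ± 0.555 at 18 mo, 26.4 ± 6.32 at 21 mo and 5.55 ± 4.75 with O304 (SD, n = 3), and unlike Ugt1a2 it was lowest of the 21 mo mice in replicate 3, at 19.8 CPM. The fitted log2 difference of 21 mo against 18 mo was 3.57 (3.42 to 3.79 with each library left out). The O304 comparisons use the 21 mo or the 18 mo libraries that chose the locus and are not independent of that choice. Against 21 mo the O304 group was lower by a log2 difference of -2.24 (SE 0.79), with an adjusted p of 0.191 by edgeR's quasi-likelihood test. The single-gene exact permutation test gave 0.1, the smallest p that 3 mice against 3 allow. Without replicate 3 of the O304 group, which had 4 counts, the log2 difference was -1.69. Against 18 mo the O304 group differed by 1.33 (SE 0.82, adjusted p = 0.647 by edgeR).

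Ugt1a1 (ENSMUSG00000089960) codes for the enzyme that conjugates bilirubin. It was scarce throughout, with 2, 2 and 3 counts at 18 mo, 16, 12 and 31 at 21 mo, and 14, 3 and 1 with O304. All 21 mo mice were above all 18 mo mice, and replicate 1 of the O304 group lay inside the 21 mo range. At 59 counts against 7 the ratio of 21 mo to 18 mo was 7.76 (95% counting interval 3.54 to 20.1). The fitted log2 difference of O304 against 21 mo was -1.56, and it ran from -3.06 without replicate 1 of the O304 group to -1.09 without replicate 3. Ugt1a1 passed the filter on low counts through the 21 mo libraries, so this difference is given without a test. Of 6 hepatocyte markers, all detected, the summed level was 1547, 528 and 135 CPM in replicates 1 to 3 of 21 mo. It was 1155 to 1919 CPM at 18 mo and 1741 to 2537 CPM with O304. Most of this sum was Cyp2e1, at 1159, 407 and 51.1 CPM in the 21 mo replicates. Alb was only 11.3, 1.93 and 0.504 CPM there, and Fgb ran the other way at 2.68, 12.5 and 21.9 CPM. The sum is therefore mainly a reading of Cyp2e1, and the part of hepatocytes in the Ugt1a1 counts was not tested.

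Ugt1a9 (ENSMUSG00000090175), whose human counterpart is a main phenol-conjugating enzyme of the kidney, had 0, 0 and 1 counts at 18 mo, 7, 19 and 10 at 21 mo, and 4, 1 and 0 with O304. It did not pass the filter and was not tested. The 36 counts of the 21 mo group against 1 at 18 mo gave a ratio of 33.1, with a counting interval of 5.58 to 1344.8 that shows how little 1 count fixes. Against the O304 group, with 5 counts, 21 mo was 6.58-fold higher (2.57 to 21.5).

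At 21 mo against 18 mo, then, 4 of the 9 members (Ugt1a1, Ugt1a2, Ugt1a9 and Ugt1a10) had every 21 mo mouse above every 18 mo mouse, and 5 overlapped. Of all genes tested, 13.5% had groups apart in that direction and 15.3% in the other, and as this comparison chose the locus nothing is read from the count. For O304 against 21 mo, 3 members (Ugt1a2, Ugt1a9 and Ugt1a10) were lower without overlap, where 10.5% of all genes tested were, and 1 (Ugt1a6b) was higher without overlap, where 10.8% were. The 21 mo libraries here are those that chose the locus, and Ugt1a9 was not among the genes tested. Nothing is read from these counts either. None of the 4 members tested (Ugt1a6a, Ugt1a6b, Ugt1a7c and Ugt1a10) passed the edgeR threshold for O304 against 21 mo, nor did any of the 15902 genes (0%). At an unadjusted p under 0.05 by edgeR there was 1 of the 4, Ugt1a10, beside 20.7% of all genes tested. DESeq2 called 0 of the 4, beside 5.2% of all genes to which it gave an adjusted p. limma voom with sample quality weights called 2 of the 4, Ugt1a10 lower and Ugt1a7c higher, but it called 41.1% of all genes. For O304 against 18 mo, only Ugt1a2 stood apart in CPM, and higher, where 13.2% of all genes tested were higher without overlap and 13.3% lower. That gap came from library scaling alone. The lowest O304 mouse (0.191 CPM) and the highest 18 mo mouse (0.186 CPM) both had 3 counts. In that comparison edgeR, DESeq2 and limma voom called none of the 4 members tested. They called 0%, 0.805% and 2.61% of all genes to which they gave an adjusted p. None of the 4 had an unadjusted p under 0.05 by edgeR, where 9.66% of all genes tested did.

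Ugt1a6a (ENSMUSG00000054545) and Ugt1a6b (ENSMUSG00000090145), a pair of closely related genes for enzymes that act on small planar phenols, did not share the pattern of Ugt1a2. Reads from so similar a pair can be split between them, so each value is uncertain. Ugt1a6a had 14, 12 and 19 counts at 18 mo, 22, 13 and 26 at 21 mo and 20, 16 and 13 with O304, and all groups overlapped. Ugt1a6b had 15, 16 and 26 counts at 18 mo, 14, 14 and 6 at 21 mo and 22, 16 and 34 with O304. Its level was 0.669 ± 0.349 CPM at 21 mo and 1.47 ± 0.627 CPM with O304 (SD, n = 3), without overlap. The fitted log2 difference between them of 1.14 (SE 0.53) did not pass the edgeR test (adjusted p = 0.253), and that of Ugt1a6a was -0.20 (SE 0.38, adjusted p = 0.765), with a sign that turned to 0.37 in limma voom and to 0.011 without replicate 1 of 21 mo.

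Ugt1a7c (ENSMUSG00000090124), a member of the phenol-conjugating group, held most of the counts of the locus, 41188 over the 9 libraries against 1784 for Ugt1a10, the next. It had 4032, 5321 and 4812 counts at 18 mo, 5710, 3263 and 1379 at 21 mo and 5596, 5643 and 5432 with O304. The O304 mice were close together at 336 ± 10.2 CPM, the 18 mo mice stood at 283 ± 40.2 CPM, and the 21 mo mice spread from 382 down to 63.2 CPM (210 ± 161, SD, n = 3). The fitted log2 difference of 21 mo against 18 mo was -0.43. Without replicate 1 of 21 mo it was -1.17 and without replicate 3 it was -0.01, so single mice decided it. For O304 against 21 mo it was 0.68 (SE 0.50, adjusted p = 0.432 by edgeR). It became 1.42 without replicate 1 of 21 mo and 0.25 without replicate 3. The former was past the threshold in its fit, as were 3808 of the 16463 genes tested there.

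Across the 21 mo mice, Ugt1a7c was low where the proximal tubule sum was low. In replicates 1, 2 and 3 of that group, Ugt1a7c was 382, 185 and 63.2 CPM beside proximal tubule sums of 14380, 6585 and 1691 CPM. Ugt1a10 was 32.4, 27.0 and 19.8 CPM in the same libraries and Ugt1a2 was 9.90, 5.29 and 18.9 CPM. Fibroblast markers summed to 127, 551 and 1320 CPM and macrophage markers to 384, 445 and 1236 CPM there, against 165 to 253 and 195 to 287 CPM at 18 mo. The part of these cell types in the levels of the members was not tested. In replicate 1 of 21 mo, Ugt1a2 and Ugt1a10 were above every 18 mo mouse, the proximal tubule sum was within the 18 mo range, the fibroblast sum was below it, and the macrophage and injury sums were above it. Single proximal tubule markers went both ways in that mouse. Slc34a1, Slc5a2, Slc22a6 and Miox were below every 18 mo mouse, and Lrp2, Cubn, Aqp1 and Gatm were above.

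**Figure D3:**
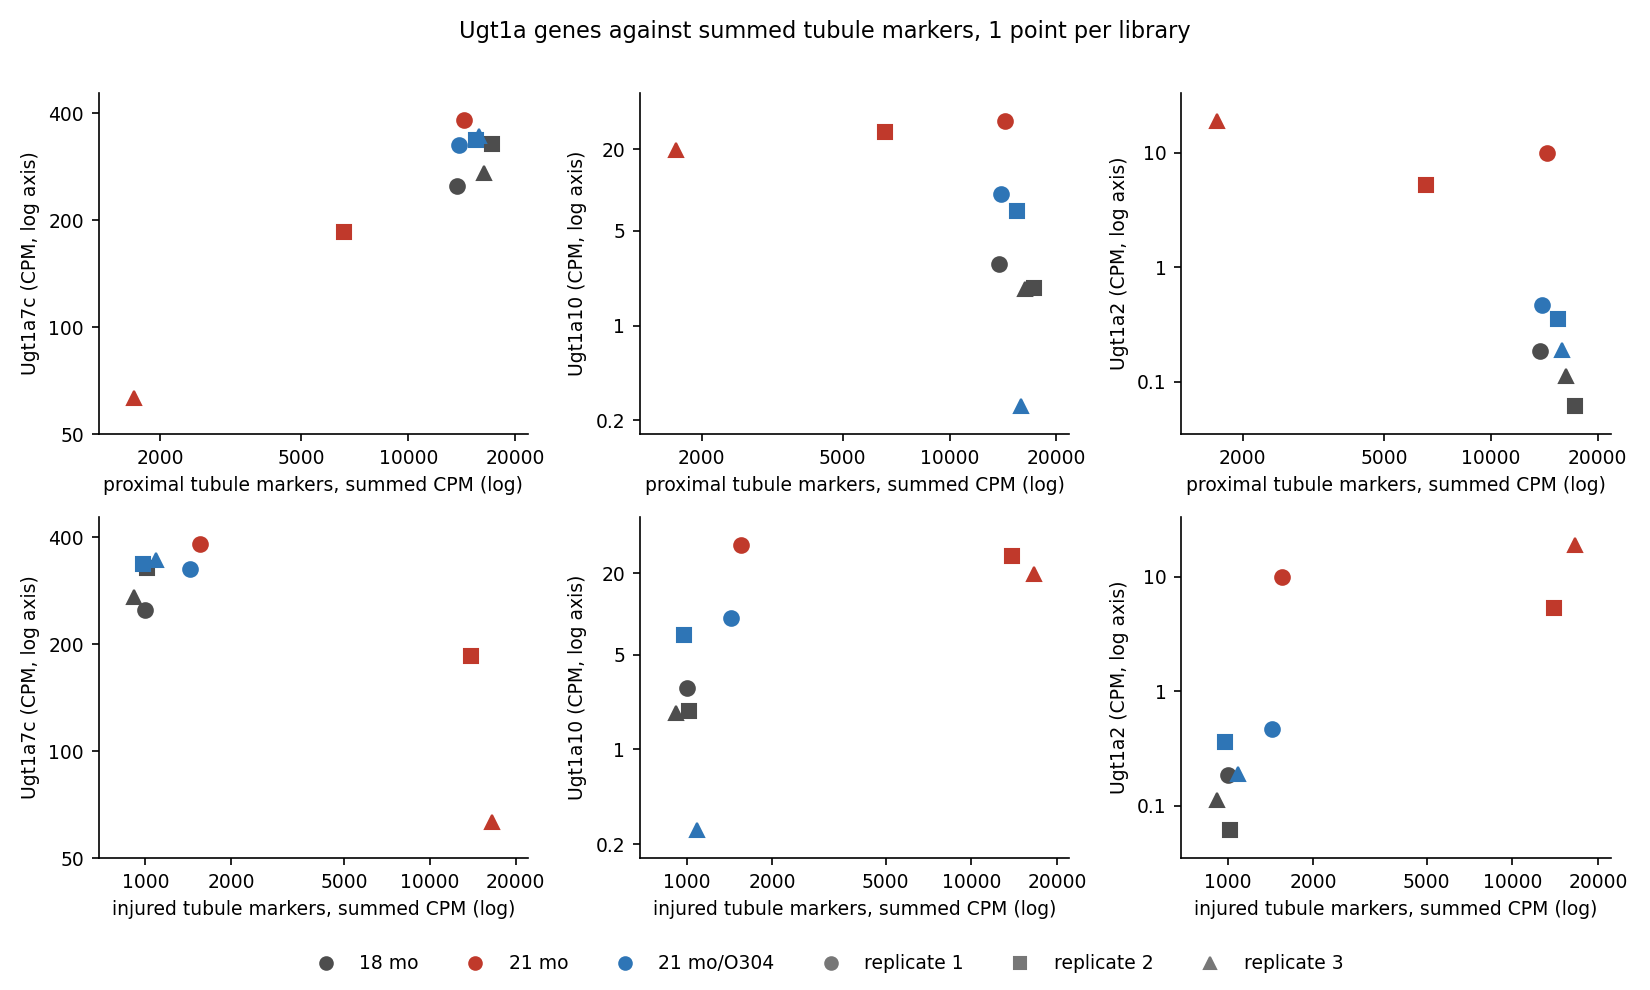
Levels of Ugt1a7c, Ugt1a10 and Ugt1a2 in CPM (log axes) against the summed CPM of 11 proximal tubule markers (top) and 6 injured tubule markers (bottom), 1 point per library. In replicate 1 of 21 mo (red circle), with an injury sum of 1553 CPM, Ugt1a2 was 9.90 CPM and Ugt1a10 32.4 CPM.

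The split of the counts between the members, which does not depend on how libraries are scaled, also differed between the mice. These are shares of counts as assigned and not of transcripts. Only Ugt1a7c could take reads of the last stretch of the locus, and the part of other members in its count was not tested. Ugt1a7c took 98.0%, 98.8% and 98.3% of the counts on the 9 members at 18 mo. At 21 mo it took 89.2%, 83.9% and 60.0%, and with O304 96.1%, 97.2% and 99.0%. All other members together thus held 1.97%, 1.19% and 1.72% at 18 mo, and 10.8%, 16.1% and 40.0% at 21 mo, where the exact 95% interval of replicate 3 was 38.0% to 42.0%. With O304 they held 3.95%, 2.81% and 1.00%. The summed level of the members other than Ugt1a7c was 4.57 ± 0.559 CPM at 18 mo, 41.3 ± 5.36 at 21 mo and 8.86 ± 4.99 with O304 (SD, n = 3), while the sum of all 9 was 288 ± 39.7, 251 ± 164 and 345 ± 5.39 CPM. The 21 mo mice were thus alike in the first sum and unlike in the second.

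Among the counts not on Ugt1a7c, Ugt1a10 made up 39.3% to 56.8% at 18 mo and 47.1% to 75.9% at 21 mo, and was 7.27% in replicate 3 of the O304 group against 70.4% and 71.8% in the other two. Ugt1a2 made up 1.56% to 3.70% of them at 18 mo, 21.4%, 14.9% and 45.0% at 21 mo and 3.48% to 5.45% with O304. In replicate 3 of the O304 group 61.8% of this remainder, 34 of 55 counts, lay on Ugt1a6b. That mouse was the only one of the 9 in which Ugt1a10 was not the largest of the remaining members.

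**Figure D4:**
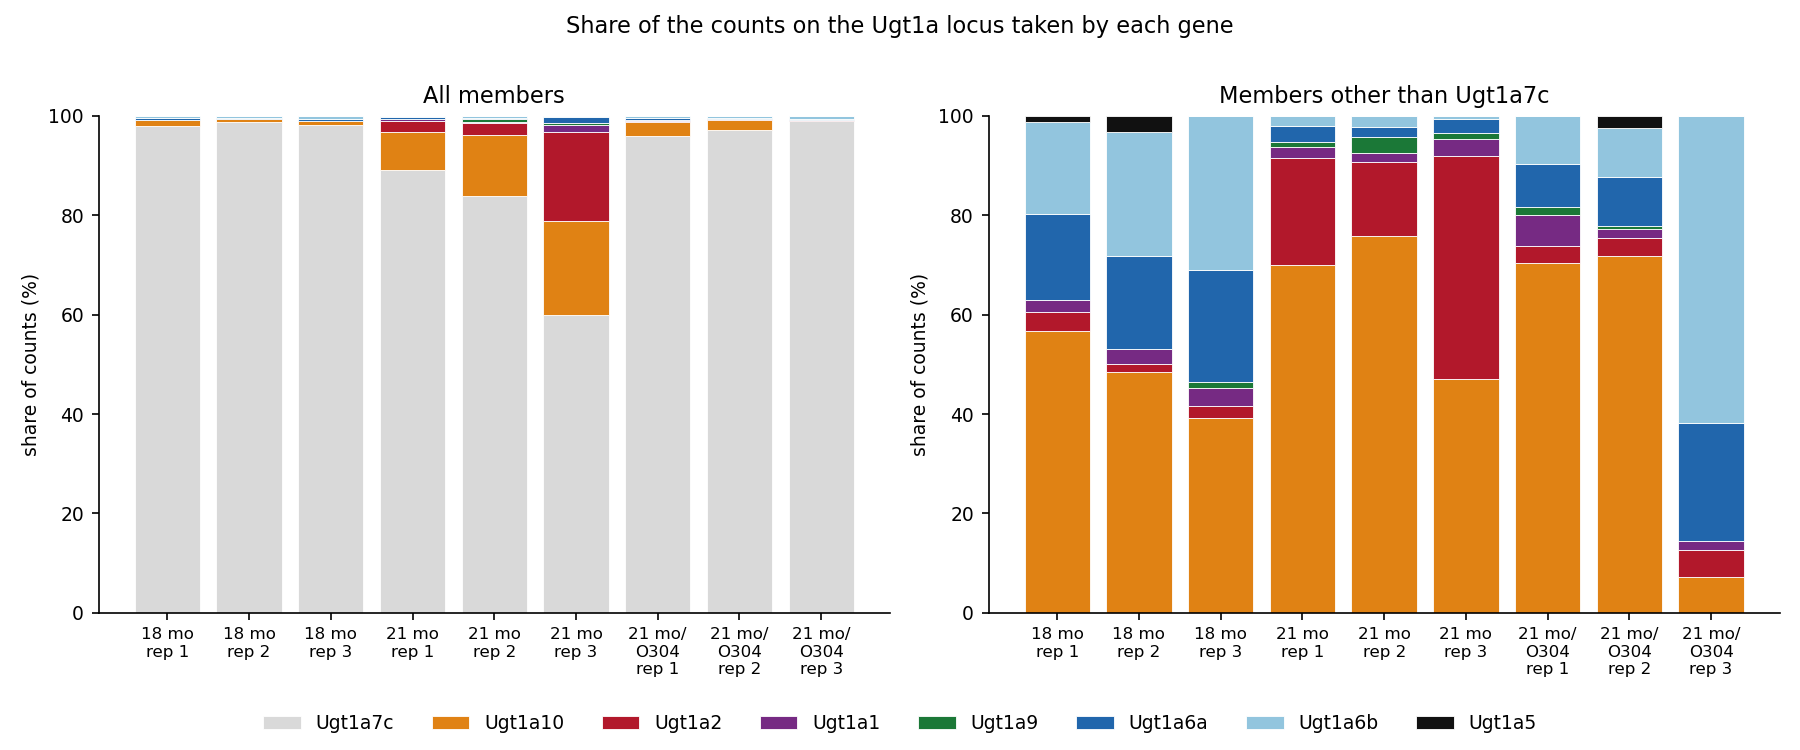
Share in percent of the counts on the Ugt1a genes held by each gene, per library, for all members (left) and for the members other than Ugt1a7c (right). Ugt1a7c held 60.0% to 89.2% in the 21 mo mice and 96.1% to 99.0% in the others, and Ugt1a2 reached 45.0% of the remainder in replicate 3 of 21 mo.

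Ugt1a5 (ENSMUSG00000089943) had 1, 2 and 0 counts at 18 mo, none at 21 mo, and 0, 4 and 0 with O304, and no fold is given. Ugt1a8 (ENSMUSG00000089675) had no count in any library, which allows a level of up to 0.0195 CPM over the 9 libraries. Another 10 genes of the table lie inside the locus, of which 8 are pseudogenes with at most 3 counts in a library. Dnajb3, a chaperone gene on the minus strand within the span of Ugt1a2, had 8, 6 and 10 counts at 18 mo, 7, 10 and 44 at 21 mo and 8, 8 and 3 with O304. Its highest library was that with the most Ugt1a2 counts, and since the use of strand in counting is not stated, reads of the overlapping genes cannot be told apart. Of 22 other genes within 200 kb of the locus 5 were tested, and none passed the edgeR threshold in any comparison. At 21 mo against 18 mo their adjusted p-values ran from 0.238 for Hjurp to 0.875 for Spp2.

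Beyond the locus, the 5 protein-coding genes whose centred log2 CPM over the 9 libraries lay closest to that of Ugt1a2 were Slc39a4, Abcc3, Trem1, Psca and Msr1, among 13910 candidates. Their root-mean-square differences from Ugt1a2 were 1.14, 1.16, 1.18, 1.20 and 1.26 log2 units, with a median of 2.44 over all candidates, so none followed it closely. Slc39a4 is a zinc transporter, Trem1 a receptor of myeloid cells and Msr1 a macrophage scavenger receptor. In replicates 1 to 3 of 21 mo, Msr1 stood at 4.08, 5.91 and 55.8 CPM, highest in the mouse with the most macrophage signal. Abcc3 codes for MRP3, a pump that moves glucuronides out of cells. Among the members, Ugt1a10 was nearest to Ugt1a2 at 1.41 log2 units with 25 genes closer, then Ugt1a1 at 1.54 with 60 closer, whereas Ugt1a7c was at 2.96 with 13268 closer. A profile high only at 21 mo was shared by many genes, and the likeness is a description over 9 libraries in 3 groups.

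The genes around glucuronidation were read from 9 lists of 81 genes, of which 66 were tested. None passed the edgeR threshold in any comparison, and the smallest adjusted p was 0.0626 at 21 mo against 18 mo, 0.175 for O304 against 21 mo and 0.323 for O304 against 18 mo. At an unadjusted p under 0.05, 13 were higher and 9 lower at 21 mo than at 18 mo, 14 higher and 8 lower with O304 than at 21 mo, and 5 higher and 1 lower with O304 than at 18 mo. Over all genes tested, 26.1%, 20.7% and 9.66% had such a p in these comparisons. DESeq2 called 12 higher and 5 lower of 68 in the first, 3 and 4 of 68 in the second and 2 and 0 of 64 in the third, where it called 11.7%, 5.2% and 0.805% of all genes to which it gave an adjusted p. limma voom called 20 higher and 17 lower, 20 and 10, and 3 and 0 of the 66, beside 52.9%, 41.1% and 2.61% of all genes. The first and second of these comparisons share the 21 mo libraries.

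The export pumps held the gene with the smallest p in both comparisons with 21 mo. Abcc3, the basolateral glucuronide exporter, was 4.21, 3.02 and 3.45 CPM at 18 mo, 17.6, 18.5 and 47.7 CPM at 21 mo and 6.28, 4.77 and 2.42 CPM with O304. All 21 mo mice were above all others, with a log2 difference of 2.97 (SE 0.48, adjusted p = 0.0626 by edgeR) from 18 mo and one of -2.64 (SE 0.47, adjusted p = 0.175) for O304 against 21 mo. Abcc4, a pump for organic anions in the apical membrane of the tubule, was 35.4 to 55.8 CPM at 18 mo, 120 to 228 CPM at 21 mo and 50.2 to 125 CPM with O304, with log2 differences of 1.76 (adjusted p = 0.0626) and -0.91 (adjusted p = 0.209). Of the 7 efflux genes, edgeR called none and DESeq2 called 2 higher at 21 mo than at 18 mo, beside 6.59% of all genes to which it gave an adjusted p. The median log2 difference of the list was 0.28, against 0.03 over all genes tested.

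The transferases outside the locus had medians of the opposite sign to that list. For the 8 tested of 13 Ugt2, Ugt3 and Ugt8 genes the median log2 difference of 21 mo against 18 mo was -0.81. That of O304 against 21 mo was 1.22 beside -0.02 over all genes. In the latter, edgeR called 0 and DESeq2 called 2 higher, where DESeq2 called 5.2% of all genes in either direction. Ugt2b38 was 408 to 813 CPM at 18 mo, 365, 249 and 87.7 CPM in replicates 1 to 3 of 21 mo and 652 to 1124 CPM with O304. All 21 mo mice were below all others, with a log2 difference of 1.99 (SE 0.50) for O304 against 21 mo that did not pass the edgeR test (adjusted p = 0.175). Ugt2b37 was 138 to 231 CPM with O304 and 38.6 to 96.7 CPM at 21 mo, a log2 difference of 1.25 (SE 0.37, adjusted p = 0.175). The proximal tubule sum was likewise lowest in replicate 3 of 21 mo, and its part in these levels was not tested.

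The genes for the supply of UDP-glucuronic acid and for the breakdown of haem to bilirubin had medians near that of all genes, and edgeR called none. Of 7 supply and hydrolysis genes the median log2 difference at 21 mo against 18 mo was 0.01. Pgm1 was 19.2 ± 6.30 CPM at 21 mo and 11.8 ± 1.05 CPM at 18 mo (SD, n = 3; log2 difference 0.70, adjusted p = 0.114 by edgeR). Pgm2, on the same list, had the opposite sign, at 69.7 ± 24.8 and 105 ± 11.8 CPM (log2 difference -0.59, adjusted p = 0.149). Slc35d1, which carries UDP-glucuronic acid into the endoplasmic reticulum, was 38.7 ± 11.7 CPM at 21 mo and 57.7 ± 9.30 CPM at 18 mo (log2 difference -0.58, adjusted p = 0.149). Hmox1, the haem oxygenase that responds to stress, and Blvra, which makes bilirubin from biliverdin, had log2 differences of 0.42 (adjusted p = 0.237) and -0.27 (adjusted p = 0.302). The median of the 4 haem genes was -0.00 there.

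Among 12 receptors and factors known to act on Ugt1a genes, 10 were tested, and none passed the edgeR threshold. Nfe2l2, which codes for the oxidant-sensing factor Nrf2, was 86.6 to 91.8 CPM at 18 mo, 115 to 167 CPM at 21 mo and 96.5 to 109 CPM with O304. Keap1, which holds Nrf2 back, was 50.1 to 52.0 CPM at 18 mo, 33.4 to 39.2 CPM at 21 mo and 41.6 to 44.9 CPM with O304. Neither gene overlapped between any pair of these groups, with log2 differences at 21 mo against 18 mo of 0.74 (SE 0.16) for Nfe2l2 and -0.50 (SE 0.10) for Keap1, both with an adjusted p of 0.0626 by edgeR. Of 10 tested Nrf2 targets, 4 were higher at 21 mo than at 18 mo at an unadjusted p under 0.05, beside 14% of all genes tested, and 4 of the 12 on the list were called higher by DESeq2, beside 6.59% of all genes. The edgeR threshold was passed by none of the 10. Gsta1, 1 of the 4 with an unadjusted p under 0.05, was only 0.372 to 0.431 CPM at 18 mo. It passed the filter on low counts through the 21 mo libraries, so its p is not read as support. Gclc, Gclm and Txnrd1, on the same list, had log2 differences of -0.09, -0.32 and -0.08 at 21 mo against 18 mo, with overlap, and the other tested targets had positive ones. The 4 with an unadjusted p under 0.05 include the glutathione transferases Gsta2, at 95.2 ± 32.0 CPM at 18 mo and 240 ± 54.3 CPM at 21 mo (log2 difference 1.33, adjusted p = 0.0626), and Gsta4, at 19.7 ± 0.348 and 74.3 ± 51.2 CPM (log2 difference 1.91, adjusted p = 0.0665). Nqo1, a quinone reductase on the lists of both Nrf2 and the aryl hydrocarbon receptor, was 163, 90.2 and 52.0 CPM in replicates 1 to 3 of 21 mo and 68.1 to 95.7 CPM at 18 mo, with overlap.

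Targets of the other receptors held genes of both directions, none of them past the edgeR threshold. For the aryl hydrocarbon receptor, none of 4 tested targets had an unadjusted p under 0.05 in any comparison, and Cyp1b1 was 33.6 ± 8.98 CPM at 18 mo and 60.8 ± 41.2 CPM at 21 mo (adjusted p = 0.259 by edgeR). For CAR and PXR, Abcb1b, an export pump, was 9.92 to 13.4 CPM at 18 mo and 67.0, 29.4 and 16.3 CPM in replicates 1 to 3 of 21 mo (adjusted p = 0.106), whereas Por, which passes electrons to cytochrome P450 enzymes, was 401 to 470 CPM and 312, 224 and 176 CPM (adjusted p = 0.0758). For PPAR-alpha, 2 fatty acid hydroxylases had log2 differences of opposite sign. Cyp4a14 was 30.2 to 62.1 CPM at 18 mo and 577, 345 and 127 CPM in replicates 1 to 3 of 21 mo, a log2 difference of 3.01 (SE 0.65, adjusted p = 0.0631). Cyp4a12a was 125 to 220 CPM at 18 mo and 25.4, 75.0 and 9.39 CPM at 21 mo, a log2 difference of -2.21 (SE 0.63, adjusted p = 0.0879). The median log2 difference of the 12 tested PPAR-alpha targets was 0.05 there, beside 0.03 over all genes tested. It was 0.57 for O304 against 21 mo, beside -0.02, and 0.57 for O304 against 18 mo, beside 0.003.

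**Figure D5:**
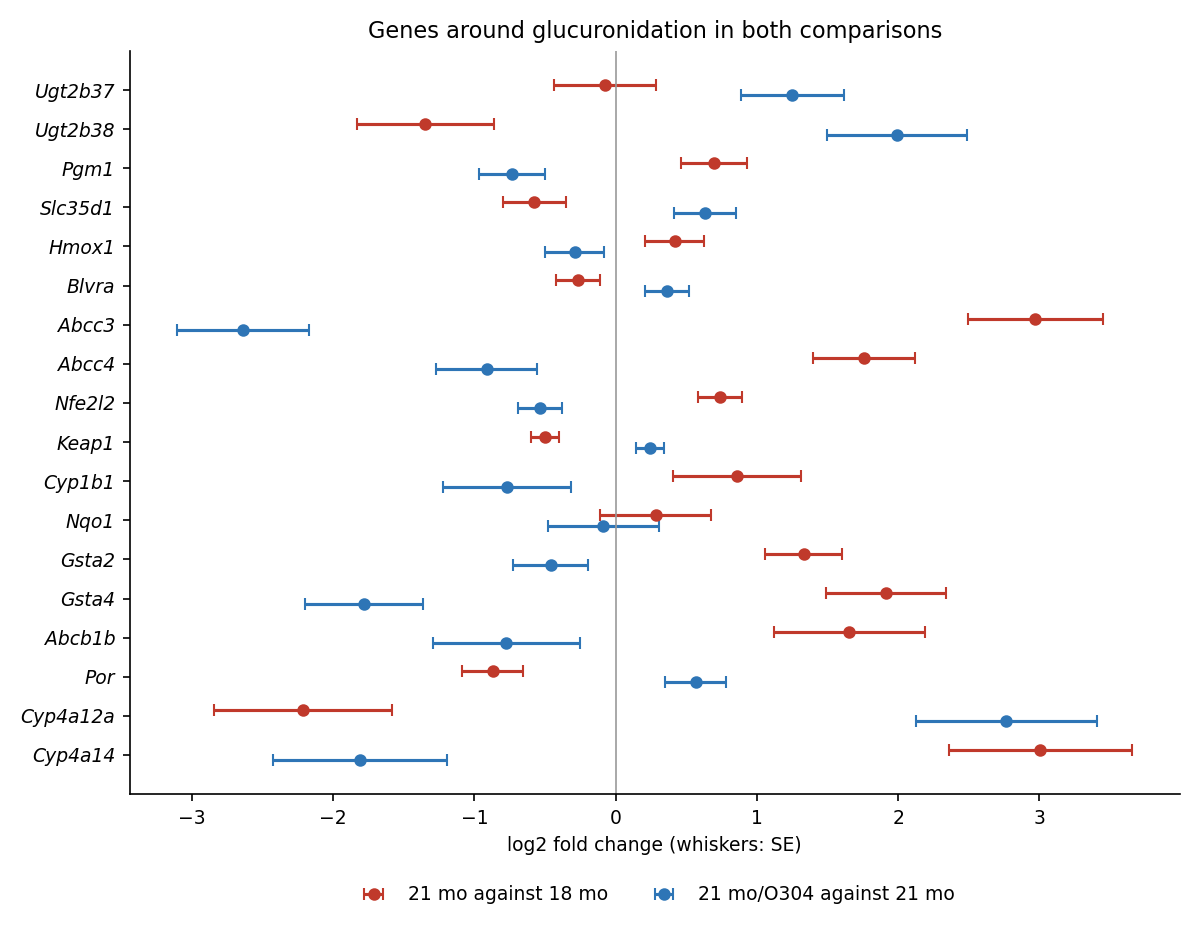
Log2 differences with SE (whiskers) of 18 genes around glucuronidation for 21 mo against 18 mo (red) and 21 mo/O304 against 21 mo (blue), by edgeR. The comparisons share the 21 mo libraries, so opposite signs in them are not independent, and no gene shown passed the threshold, with Abcc3 at 2.97 and -2.64.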

How the data were processed

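RNA was made into libraries with the NEBNext Ultra kit and read counts came from 9 mouse kidneys. Per the labels and the study's methods, the authors aligned reads with HISAT2 2.0.5 to GRCm38 (mm10) and made the deposited counts with featureCounts 1.5.0-p3, as whole numbers without normalization. The deposited FPKM were computed by the authors from count and gene length, and served here for 1 alternative. The 10 columns of the authors' own comparisons (log2 fold changes and p-values) were not used. Strand and the treatment of reads on several genes are not given in the sources used here.

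Of 54532 genes, 15902 passed filterByExpr (minimum count 10, minimum total 15). Counts were TMM-normalized and tested with edgeR 4.0.16 (quasi-likelihood, 3 group means over 9 libraries, R 4.3.3), two-sided, with Benjamini-Hochberg adjustment and a threshold of 0.05. log2 CPM used a prior count of 2. Members were also compared one by one with a two-sided exact permutation test over mice. Intervals of shares are exact binomial (Clopper-Pearson) and, with counting ratios and the limit from a count of 0 (3 counts), cover counting error only. Alternatives were DESeq2 1.42.0, limma 3.58.1 (voom with quality weights), upper-quartile scaling, all genes with a count, fits to the 6 libraries of a comparison, a replicate block and leaving out each library. The code was tested on simulated counts.

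The members and lists were chosen with earlier results of these data known. The text names every member, the 2 genes with the smallest p in either main comparison from each list (out of up to 5 that the rule allowed), genes within 200 kb and the 5 genes most like Ugt1a2. Hjurp, Spp2, Dnajb3, Pgm2, Gclc, Gclm, Txnrd1, Gsta1 and the cell type markers discussed singly were picked out after their values were seen. Symbols were matched to RefSeq (GRCm38.p6) for all 9 members. Levels per length use the whole gene length in the table, shared exons included, because exon positions were not used here.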

Additional observations from a re-analysis of the deposited data

How the results depend on the processing

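With replicates this uneven, counts of genes past the threshold depended on the method. At 21 mo against 18 mo there were 3, with 2023 by DESeq2, 8409 by limma voom, 576 when every gene with at least 1 count was kept, 0 with only the 6 libraries compared, 3 with upper-quartile scaling and 0 to 4186 with each library left out, the most without replicate 1 of 21 mo and 130 without replicate 3. As this comparison chose the locus, no call of Ugt1a2 is given for any of these settings. For O304 against 21 mo there were 0, with 896 by DESeq2, 6528 by limma voom, 17 with every gene, and 0 to 3808 with each library left out (3808 without replicate 1 of 21 mo). For O304 against 18 mo there were 0, with 118, 415, 22 on the 6 libraries and 0 to 12 (12 without replicate 3 of 21 mo).

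By FPKM the mean share of Ugt1a7c was 97.3% at 18 mo and 95.6% with O304, that of Ugt1a10 was 1.45% at 18 mo and 19.7% at 21 mo, and that of Ugt1a2 was 0.0832% at 18 mo and 0.184% with O304. The log2 differences of Ugt1a2 and Ugt1a10 at 21 mo against 18 mo were 5.31 to 6.56 and 3.57 to 3.70 over the other settings. Signs turned for Ugt1a6a at 21 mo against 18 mo (0.34, and -0.30 in limma voom), for Ugt1a6a with O304 against 21 mo (0.37 in limma voom, -0.43 to 0.011 with libraries left out), and with O304 against 18 mo for Ugt1a1 (-0.17 to 1.80), Ugt1a6a (-0.0029 to 0.30) and Ugt1a6b (-0.0028 to 0.61). They also turned for Ugt2b37 at 21 mo against 18 mo (0.16 in limma voom, -0.29 to 0.23 with libraries left out) and for Nqo1 there (-0.21 to 0.58) and with O304 against 21 mo (-0.43 to 0.42). The cause was not tested.

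The r of deviations from the group means was -0.130 to 0.175 over 9 pairs of same-numbered libraries. Over 18 pairs of different number it was -0.263 to 0.202. The ranges overlapped and the main fit used no pairing, but so few values cannot show that the numbers mean nothing. With the replicate block, 0 genes passed in each comparison. A length of unshared exons only was not run. Depth left Ugt1a5, Ugt1a8 and Ugt1a9 untested, and Ugt1a2 at 18 mo on 6 counts.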
